A study of Homo sapiens with 3 samples.

Results

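The 8 genes described here (PIK3CA, AKT1, RHEB, RPTOR, RICTOR, TSC1, TSC2 and DEPDC5) encode parts of the PI3K-AKT-mTOR pathway, a growth pathway whose genes are linked to brain overgrowth. They were chosen by name, 8 of 20033 protein-coding genes, and every CHD8 and TRRAP peak from 5 kb upstream of each gene to its end was taken. In this pathway the lipid kinase PI3K, with PIK3CA as a catalytic subunit, leads to activation of the kinase AKT1, and AKT inhibits the TSC complex of TSC1 and TSC2. The TSC complex is a brake that switches off RHEB, the small GTPase that activates the kinase complex mTORC1 at the lysosome. RPTOR is the defining subunit of mTORC1 and RICTOR that of mTORC2, which phosphorylates AKT. DEPDC5 belongs to GATOR1, a brake that restrains mTORC1 when amino acids are scarce. PIK3CA, AKT1, RHEB, RPTOR and RICTOR are called activators here (5 genes), and TSC1, TSC2 and DEPDC5 brakes (3 genes).

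The peaks come from ChIP-seq of wild-type neural stem cells grown from the established human embryonic stem cell line H9 and fixed with 2 mM disuccinimidyl glutarate and then 1% formaldehyde. CHD8 is a chromatin remodeler, and TRRAP is a scaffold of histone acetyltransferase complexes; the study's title names their joint role at MYC and E2F target genes. Each antibody had 1 library, the IgG control library was not analysed here, and no treatment, clone or second genotype is named. Neither the read totals nor replicates are given, so the depth is unknown and no value below has an error between experiments or a test. Peak lists hold no expression values, so the labelled cell type was not checked against its markers.

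The CHD8 list held 23393 peaks (median fold 9.31, median width 376 bp) and the TRRAP list 14735 (median fold 8.17, median width 229 bp). A fold is the linear enrichment of a peak over the caller's background, as the authors deposited it, and it was used to describe or rank peaks within a list only. The lists hold peaks past a threshold, so a gene without a peak may still have a weaker signal. Coordinates are on GRCh38, offsets are distances of a peak summit from the start site of the canonical transcript in GENCODE release 44, and negative offsets lie upstream. A promoter peak overlapped the 1 kb on either side of that site, and all other peaks in the span of a gene are called body peaks, also where they lie upstream.

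CHD8 had a promoter peak at 7 of the 8 genes, all but AKT1. Among all protein-coding genes this share was 55.9%. TRRAP had one at 5 of the 8 genes (RHEB, RICTOR, TSC1, TSC2 and DEPDC5), beside 34.9% of all genes. The same 5 genes carried both, beside 34.0% of all genes. PIK3CA and RPTOR had CHD8 alone, AKT1 had neither, and no gene had TRRAP alone. Of all 20033 protein-coding genes, 8627 had neither and only 198 had TRRAP alone. Of the 11208 with CHD8, 6802 also had TRRAP. The CpG ratio of the 8 promoters (observed over expected, 500 bp on each side of the start) was between 0.719 at DEPDC5 and 1.04 at RHEB. Across deciles of this ratio, 72.9% of genes in decile 5, where TSC1 and DEPDC5 fall, and 86.1% in decile 10, where RHEB falls, had a CHD8 promoter peak. The shares for TRRAP were 38.6% and 67.6%. In total the 8 spans held 18 CHD8 and 12 TRRAP peaks, of which 9 and 7 were promoter peaks.

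**Figure D1:**
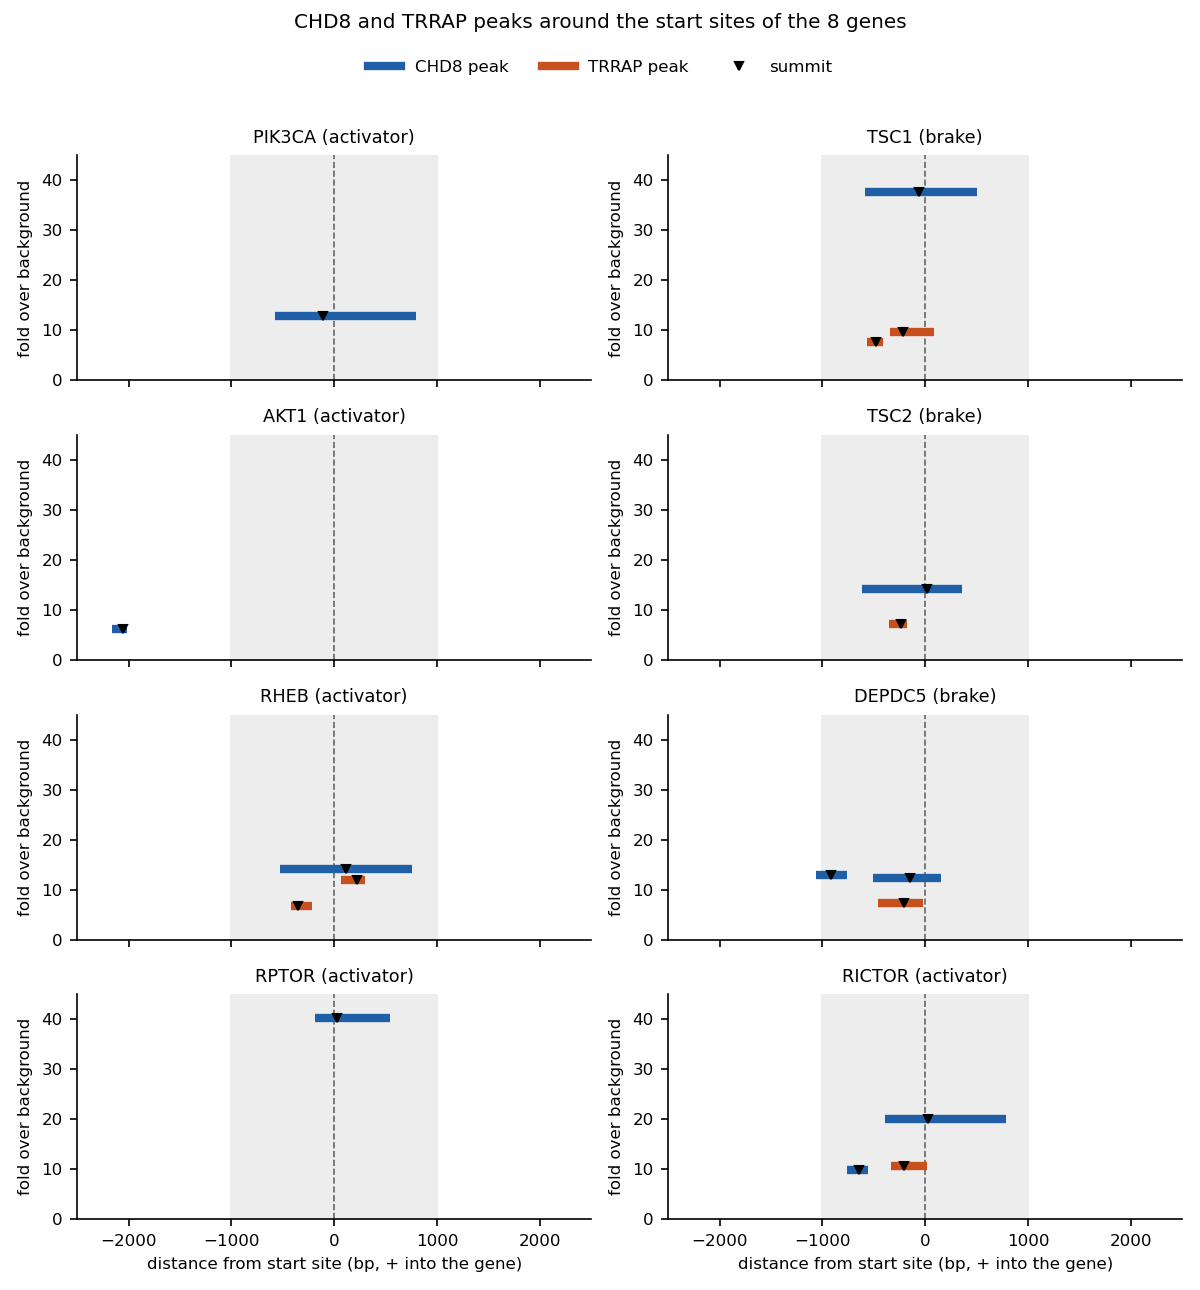
Peaks within 2500 bp of the start site of each gene, drawn at their width along the x axis (bp, positive into the gene) and at their deposited fold on the y axis; triangles mark summits, grey marks the 1 kb promoter window. RPTOR and TSC1 carried CHD8 folds of 40.2 and 37.6, the AKT1 window is empty, and TRRAP is missing at PIK3CA and RPTOR.

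At PIK3CA (ENSG00000121879.6, chromosome 3, plus strand), 1 CHD8 peak lay at chr3:179147780-179149154. Its fold was 12.8, close to the middle of promoter peaks (percentile 55.3 among the strongest CHD8 promoter peaks of 11208 genes), but its width of 1375 bp was at percentile 94.9 of the same peaks. The summit was 111 bp upstream of the start site, between that site and the start of the divergent noncoding gene PIK3CA-DT, and inside an annotated PIK3CA transcript that starts farther upstream. No TRRAP peak was listed anywhere in the span of 92.0 kb of gene and 5 kb upstream. Of the 5172 genes with a CHD8 promoter fold of at least 12.8, 3751 (72.5%) had a TRRAP promoter peak, and PIK3CA was among the other 1421. The sequence below runs from −137 to −10 bp (chr3:179148220-179148347, plus strand) and is shown because the summit falls in it; capitals mark a CCAAT word, the box bound by NFY, 7 bp from the summit, and the word GGGGCGGGG, bound by SP factors.

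PIK3CA: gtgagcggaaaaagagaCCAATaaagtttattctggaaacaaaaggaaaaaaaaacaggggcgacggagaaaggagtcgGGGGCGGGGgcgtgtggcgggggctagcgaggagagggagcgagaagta

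AKT1 (ENSG00000142208.18, chromosome 14, minus strand) was the only one of the 8 genes with an empty promoter window in both lists. Its promoter was the richest in G and C of the 8, at 79.7%. Only 150 protein-coding genes had a value at least as high, and 105 of these (70.0%) had a CHD8 promoter peak and 89 (59.3%) a TRRAP promoter peak. The strongest peaks of the gene lay instead inside it, in intron 4. The CHD8 peak at chr14:104777580-104777872 had a fold of 11.1 and the TRRAP peak at chr14:104777636-104777989 a fold of 12.0, at percentile 80.3 of the TRRAP list. Their summits were 32 bp apart, 18.0 kb into the gene, and the CHD8 summit was 50 bp from the annotated start of a short AKT1 transcript with no defined coding sequence. Counting the start sites of all transcripts therefore gave AKT1 a promoter peak of each protein. Upstream, a weak CHD8 peak (fold 6.22, width 154 bp) lay at −2052 bp. A further overlapping pair at −4427 bp (CHD8, fold 7.54) and −4685 bp (TRRAP, fold 5.30) was nearer to the start of ZBTB42, 926 and 668 bp away. That TRRAP peak was rank 14673 of 14735 in its list. The intron 4 site is printed because it carries both proteins in a gene whose promoter has neither (chr14:104777683-104777805, minus strand); capitals run from the TRRAP to the CHD8 summit.

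AKT1 intron 4: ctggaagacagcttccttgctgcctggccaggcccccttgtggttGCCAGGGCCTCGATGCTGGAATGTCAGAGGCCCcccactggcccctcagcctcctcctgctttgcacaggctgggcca

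RHEB (ENSG00000106615.10, chromosome 7, minus strand) had 1 CHD8 peak at chr7:151519134-151520422, with a fold of 14.2, a width of 1289 bp and its summit 119 bp inside the gene, in the 5' UTR in exon 1. It enclosed 2 TRRAP peaks, at chr7:151519593-151519826 (fold 12.0, summit at 219 bp) and chr7:151520112-151520319 (fold 6.73, summit at −356 bp). The first of these was the strongest TRRAP promoter peak of the 8 genes, at percentile 77.6 among genes with one. Part of the RHEB promoter is repeated sequence. All 32-base words of the first TRRAP peak, and 26.9% of those of the CHD8 peak, occurred more than once in the reference, up to 3 times, whereas the second TRRAP peak was single-copy throughout. The word at the CHD8 summit was also found at 2 places on chromosome 10, in the pseudogenes SHLD2P1 and SHLD2P3. Both places carried a CHD8 peak: chr10:46635435-46635865 with a fold of 8.87 and chr10:47705667-47706261 with a fold of 19.5. The second also carried a TRRAP peak (chr10:47705953-47706210, fold 11.0). How far reads from these copies add to the RHEB values, or the reverse, was not tested. Without summits in repeated sequence RHEB kept its weaker TRRAP peak and lost its CHD8 peak, which left CHD8 at 6 genes and both proteins at 4. RHEB held the only E-box (CACGTG, the word MYC and MAX bind) within 100 bp of any summit of the 8 genes, in the first TRRAP peak with its multi-copy words, 54 bp from the CHD8 and 46 bp from the TRRAP summit (30 bases shown, chr7:151519708-151519737, minus strand, E-box in capitals).

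RHEB E-box: acgccggccggtCACGTGggcgtgttgtgg

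RPTOR (ENSG00000141564.16, chromosome 17, plus strand) had the strongest CHD8 promoter peak of the 8 genes: chr17:80544655-80545384, fold 40.2, −log10 q 120, rank 247 of 23393. It was at percentile 98.4 of CHD8 promoter peaks, and its summit lay 28 bp inside exon 1. No TRRAP peak touched the promoter window. Of 184 genes with a CHD8 promoter fold at least this high, 155 (84.2%) had TRRAP and 29 did not. The RPTOR promoter was also the poorest in G and C of the 8 (53.0%), and an unnamed protein-coding gene model on the same strand starts 237 bp away. TRRAP was found inside RPTOR, far from the start. A pair in intron 3 joined chr17:80678833-80679000 (CHD8, fold 7.10) and chr17:80678736-80678949 (TRRAP, fold 8.65), with summits 47 bp apart. A pair in intron 13 joined chr17:80873501-80873806 (CHD8, fold 7.98) and chr17:80873491-80873940 (TRRAP, fold 11.5), with summits 43 bp apart. CHD8 alone was listed in intron 9 (fold 12.4) and intron 24 (fold 6.66). The promoter stretch from −120 to −20 bp (chr17:80544718-80544818, plus strand) holds none of the words searched and so has no capitals; it ends before the summit, and a CCAAT word lies 59 bp from the summit on its downstream side, at chr17:80544923-80544927. A CCAAT word on the opposite strand (chr17:80678833-80678837) lies in the intron 3 stretch, 8 bp from the TRRAP summit. The 2 intronic sites, at chr17:80678782-80678919 and chr17:80873627-80873760 (plus strand), are shown because TRRAP peaks were listed there and not at the promoter; capitals run from one summit to the other.

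RPTOR promoter: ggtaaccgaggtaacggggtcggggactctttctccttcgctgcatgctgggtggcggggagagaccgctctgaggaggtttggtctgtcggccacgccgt
RPTOR intron 3: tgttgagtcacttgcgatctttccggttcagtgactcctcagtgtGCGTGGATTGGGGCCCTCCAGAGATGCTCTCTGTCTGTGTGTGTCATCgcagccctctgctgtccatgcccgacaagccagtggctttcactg
RPTOR intron 13: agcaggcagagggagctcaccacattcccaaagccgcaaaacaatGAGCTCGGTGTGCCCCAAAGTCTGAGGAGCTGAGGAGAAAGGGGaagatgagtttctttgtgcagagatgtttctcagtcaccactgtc

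RICTOR (ENSG00000164327.14, chromosome 5, minus strand), the mTORC2 subunit, had CHD8 and TRRAP together at its promoter. The main CHD8 peak was chr5:39073613-39074794, with a fold of 19.9 (percentile 84.2 of CHD8 promoter peaks), a width of 1182 bp and a summit 25 bp inside exon 1. A second, weaker CHD8 peak (chr5:39074953-39075162, fold 9.75) had its summit at −643 bp. The TRRAP peak at chr5:39074382-39074732 had a fold of 10.6 and a summit at −207 bp, between both CHD8 summits, and overlapped only the main CHD8 peak. The gene body, 136 kb long, held no peak of either list.

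TSC1 and TSC2, the partners of the TSC complex, both carried both proteins at the promoter and nothing in the body. TSC1 (ENSG00000165699.15, chromosome 9, minus strand) had the second strongest CHD8 peak of the 8 genes, chr9:132944108-132945203, with a fold of 37.6, a −log10 q of 109, a width of 1096 bp and a summit at −62 bp. It enclosed 2 TRRAP peaks, chr9:132944530-132944958 (fold 9.60, −219 bp) and chr9:132945027-132945180 (fold 7.69, −475 bp). Other TSC1 transcripts have annotated starts 16 bp from the CHD8 summit and 1 bp from the stronger TRRAP summit. TSC2 (ENSG00000103197.19, chromosome 16, plus strand) had a CHD8 peak of fold 14.2 and width 972 bp at chr16:2047372-2048343, with the summit 21 bp inside exon 1. Its TRRAP peak at chr16:2047638-2047808 was narrow (171 bp) and weak within its list (fold 7.21, percentile 24.9 of TRRAP promoter peaks). TSC2 shares this promoter with the DNA repair gene NTHL1, which runs the other way from a start 151 bp away, and the TRRAP summit was 84 bp from the NTHL1 start against 235 bp from that of TSC2. A peak here cannot be assigned to 1 of these genes. TSC1 and RHEB were thus the 2 of the 5 genes with both proteins whose CHD8 promoter peak overlapped 2 TRRAP peaks, a layout present at 18.5% of all genes with both. Printed are an SP word 12 bp from the stronger TRRAP summit of TSC1 (chr9:132944779-132944867, minus strand), the YY1 word AAGATGGC just inside TSC1 (chr9:132944590-132944619, minus strand) and the ETS word CCGGAAGT 34 bp from the TSC2 CHD8 summit (chr16:2047957-2047986, plus strand), each in capitals. These were the only YY1 and ETS words at the 18 CHD8 summits of the 8 genes, beside 4.05% and 3.63% of all CHD8 summits. Among CHD8 promoter peaks the shares were 5.99% and 5.77%.

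TSC1 SP: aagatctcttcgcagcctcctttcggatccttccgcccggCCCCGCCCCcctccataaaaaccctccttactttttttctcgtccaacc
TSC1 YY1: gctgtacgtccAAGATGGCggcgccctgta
TSC2 ETS: caatgccgctaCCGGAAGTgcgggtcgcgc

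DEPDC5 (ENSG00000100150.20, chromosome 22, plus strand) had 2 CHD8 promoter peaks of nearly equal fold. The one at chr22:31752956-31753259 (fold 12.8, width 304 bp, summit at −919 bp) had no TRRAP. The one at chr22:31753508-31754171 (fold 12.4, width 664 bp, −146 bp) overlapped a TRRAP peak at chr22:31753558-31753995 (fold 7.21, width 438 bp, −203 bp). Another DEPDC5 transcript has an annotated start 6 bp from the CHD8 summit of this pair. A stronger pair lay farther upstream, within the 5 kb counted here but at the start of the neighbouring gene PRR14L: CHD8 at chr22:31749625-31750346 (fold 13.7, 30 bp from the PRR14L start) and TRRAP at chr22:31750100-31750301 (fold 11.5, 57 bp from it). The highest folds in the DEPDC5 span were therefore those at the start of its neighbour. A narrow CHD8 peak without TRRAP (chr22:31893611-31893769, fold 8.87, width 159 bp) had its summit in coding exon 39, 140 kb from the start. An unnamed protein-coding gene model on the same strand starts 880 bp from the DEPDC5 start. The stretch shown runs from −207 to −153 bp (chr22:31753812-31753866, plus strand) and carries an SP word, in capitals, 17 bp from the CHD8 and 40 bp from the TRRAP summit of the overlapping pair.

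DEPDC5: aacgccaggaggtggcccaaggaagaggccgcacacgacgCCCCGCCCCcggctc

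Set side by side, 4 of 5 activators and 3 of 3 brakes had a CHD8 promoter peak, and 2 of 5 activators and 3 of 3 brakes a TRRAP promoter peak. The median CHD8 fold of the strongest promoter peak was 17.0 in activators (4 genes, 12.8 to 40.2) and 14.2 in brakes (3 genes, 12.8 to 37.6), so the ranges overlapped. The difference of 2.87 between these medians was 0 with a promoter window of 2500 bp and 0 with the starts of all transcripts, both of which add a CHD8 peak of AKT1. For TRRAP the medians were 11.3 in activators (10.6 and 12.0 in RICTOR and RHEB) and 7.21 in brakes (7.21, 7.21 and 9.60), and these values did not overlap. The higher activator value, that of RHEB, lies in multi-copy sequence. The single-copy TRRAP promoter peak of RHEB had a fold of 6.73, below all 3 brakes, so with that peak in its place the values overlapped. With only 2 and 3 genes and no replicate library, no test was made. The medians over all genes with a promoter peak were 12.0 for CHD8 and 8.65 for TRRAP. Among peaks above the median rank of their list, TRRAP was left at 3 of the 8 promoters, RHEB, RICTOR and TSC1, which is 2 of 5 activators and 1 of 3 brakes.

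CHD8 promoter peaks of these genes were wide for the most part. Their median width was 1096 bp (304 to 1375 bp, 7 genes, strongest peak each), beside 637 bp over all genes with one, and 4 of them, at PIK3CA, RHEB, RICTOR and TSC1, exceeded 1000 bp. These 4 were at percentiles 94.9, 93.0, 89.9 and 86.9 of width among genes with a CHD8 promoter peak. The summit of the RHEB peak lies in multi-copy sequence. The TRRAP peaks were narrower, with a median of 351 bp (171 to 438 bp, 5 genes), beside 268.5 bp over all genes. By fold the order of CHD8 promoter peaks was RPTOR, TSC1, RICTOR, then RHEB and TSC2 at the same value of 14.2, then PIK3CA and DEPDC5 at the same value of 12.8. By width it was PIK3CA, RHEB, RICTOR, TSC1, TSC2, RPTOR and DEPDC5, so the strongest peak was among the narrower ones.

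All 12 TRRAP peaks in the 8 spans overlapped a CHD8 peak, beside 86.8% of the whole TRRAP list, and 10 of the 18 CHD8 peaks overlapped TRRAP, beside 48.6% of the whole CHD8 list. At promoters, all 7 TRRAP peaks shared at least 1 bp with CHD8, and each lay wholly inside a CHD8 peak. Among all protein-coding genes, 6802 of the 7000 with a TRRAP promoter peak also had a CHD8 promoter peak. How often TRRAP peaks lie wholly inside CHD8 peaks at other promoters was not counted. In the 7 promoter pairs the TRRAP summit was upstream of the CHD8 summit in 6, all but the multi-copy RHEB pair. The 7 pairs come from 5 genes and are not separate cases, because RHEB and TSC1 gave 2 pairs each with 1 CHD8 peak. At TSC2, upstream is the side of NTHL1. In these 6 pairs the distance ran from 57 bp at DEPDC5 to 475 bp at the second RHEB peak, and the median over the 7 pairs was −232 bp. Over 8551 promoter pairs of all protein-coding genes, TRRAP was upstream in 50.3% and the median was −1 bp. Regardless of direction, the median distance between the summits was 232 bp at these promoters and 106 bp at all promoters.

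Body peaks were confined to AKT1, RPTOR and DEPDC5, 3 of the 8 genes for both proteins. Over all protein-coding genes, 24.3% had a CHD8 body peak and 15.2% a TRRAP body peak by the same definition. The layout of AKT1, with body peaks of both proteins and no promoter peak of either, was found at 4.25% of all genes. There were 9 CHD8 body peaks, with folds from 6.22 to 13.7, and 5 TRRAP body peaks, with folds from 5.30 to 12.0. Of the 9, 3 lay upstream of AKT1 or DEPDC5. RPTOR is the longest of the 8 genes (422 kb), and its 4 CHD8 body peaks came to 9.38 per Mb, beside 5.82 per Mb over all spans. Among 607 genes of 300 to 600 kb, the median was 1 CHD8 body peak (middle 50%, 0 to 2) and 0 TRRAP body peaks, and RPTOR was at percentiles 90.6 and 88.6. RICTOR, PIK3CA, RHEB, TSC1 and TSC2 had none. The 3 TRRAP peaks in introns of AKT1 and RPTOR had folds of 12.0, 8.65 and 11.5. They fell within the range of the 7 TRRAP promoter peaks of the 8 genes, 6.73 to 12.0. So did the one upstream of DEPDC5 (11.5), whereas the one upstream of AKT1 (5.30) was below it. The top of that range is the RHEB peak in multi-copy sequence. The highest fold of a single-copy TRRAP promoter peak was 10.6, at RICTOR. The intronic peaks of 12.0 (AKT1) and 11.5 (RPTOR) and the one upstream of DEPDC5 were above 10.6. The RPTOR peak of 8.65 was not.

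**Figure D2:**
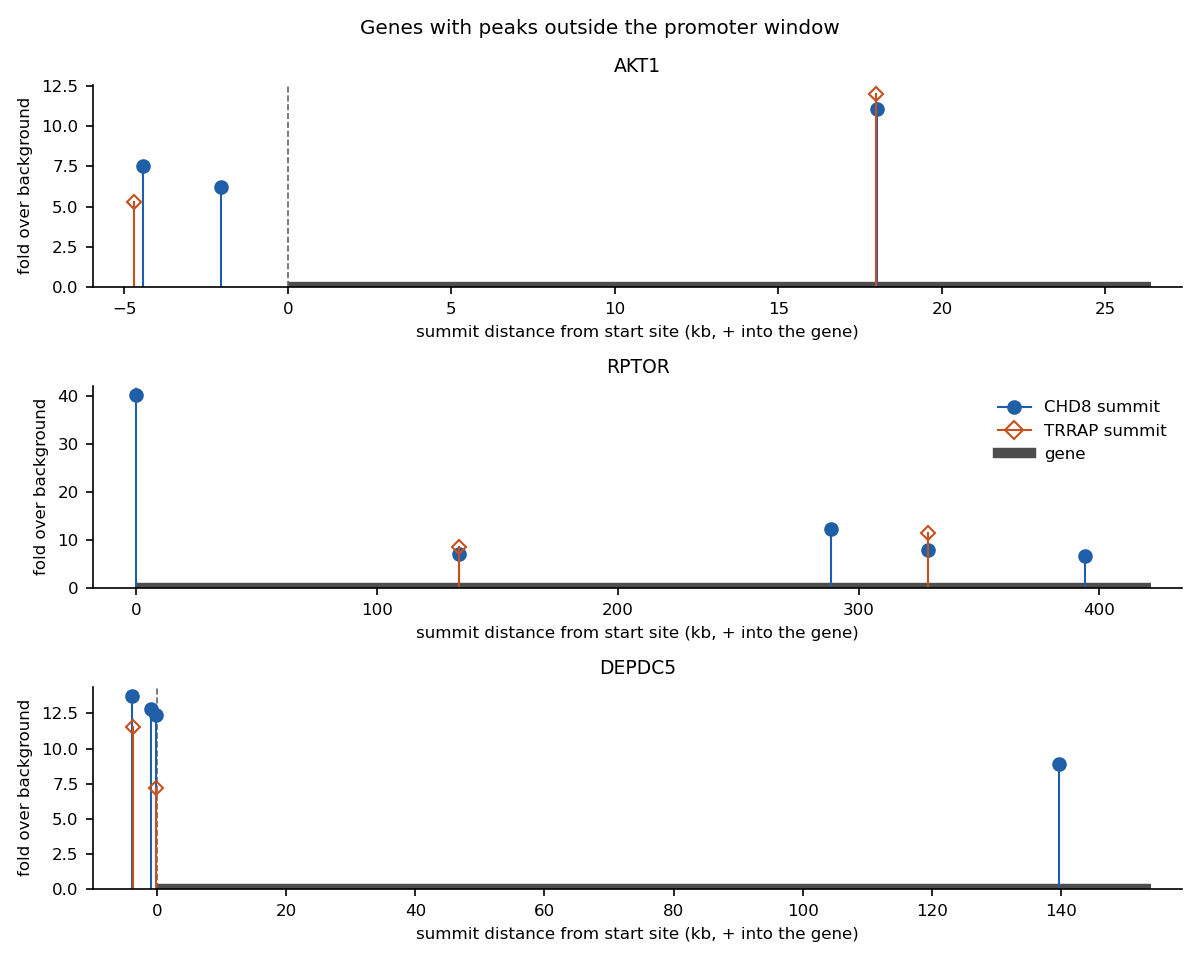
Summits along AKT1, RPTOR and DEPDC5 (x axis, kb from the start site, positive into the gene; y axis, deposited fold), with CHD8 as filled circles, TRRAP as open diamonds and the gene as a grey bar. TRRAP summits stand beside CHD8 summits at 18.0 kb in AKT1, and at 2 intronic sites but not at the start of RPTOR.

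Words for transcription factors were searched without mismatch, on both strands, in the 201 bp around each summit: CACGTG (E-box), TTTCCCGC or TTTGGCGC (E2F), CCGGAAGT (ETS), AAGATGGC (YY1), GCGCATGCG (NRF1), GGGGCGGGG (SP) and CCAAT (NFY). No E2F word and no NRF1 word occurred at any of the 18 CHD8 or 12 TRRAP summits. In the whole CHD8 list the E2F word occurred at 1.76% and the NRF1 word at 1.01% of summits, and in the TRRAP list 2.14% and 1.11%. The absence of a match says only that these letters are not in the window. The E-box occurred at 1 of 18 CHD8 summits and 1 of 12 TRRAP summits, both at RHEB, beside 5.37% and 7.03% of the lists. Among promoter peaks of the lists it occurred at 6.26% and 8.61%. SP words occurred at 3 of 18 CHD8 summits (12.0% of the list) and 4 of 12 TRRAP summits (14.9%). They lay at PIK3CA, DEPDC5, TSC1 and the ZBTB42 side of AKT1, and 1 of the TRRAP summits counted for DEPDC5 was that at the PRR14L start. Among promoter peaks of the lists the SP shares were higher, 17.0% for CHD8 and 21.1% for TRRAP. CCAAT occurred at 5 of 18 and 2 of 12, beside 17.9% and 15.9%. SP and CCAAT words were thus the only ones found at more than 1 gene.

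The other genes of the pathway were taken from a list of 70 (28 activators, 25 brakes and 17 effectors). Of these, 64 (91.4%) had a CHD8 promoter peak, 44 (62.9%) a TRRAP promoter peak and 43 (61.4%) both. The same shares over all protein-coding genes were 55.9%, 34.9% and 34.0%. TRRAP was thus present at 43 of the 64 genes with CHD8 (67.2%), beside 60.7% of all genes with CHD8. The median folds on the list, 12.0 for CHD8 and 8.41 for TRRAP, were close to those of all genes. The split seen in the 8 genes, with TRRAP at every brake but not at every activator, was not seen here: 18 of 28 activators (64.3%), 15 of 25 brakes (60.0%) and 11 of 17 effectors (64.7%) had TRRAP.

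**Figure D3:**
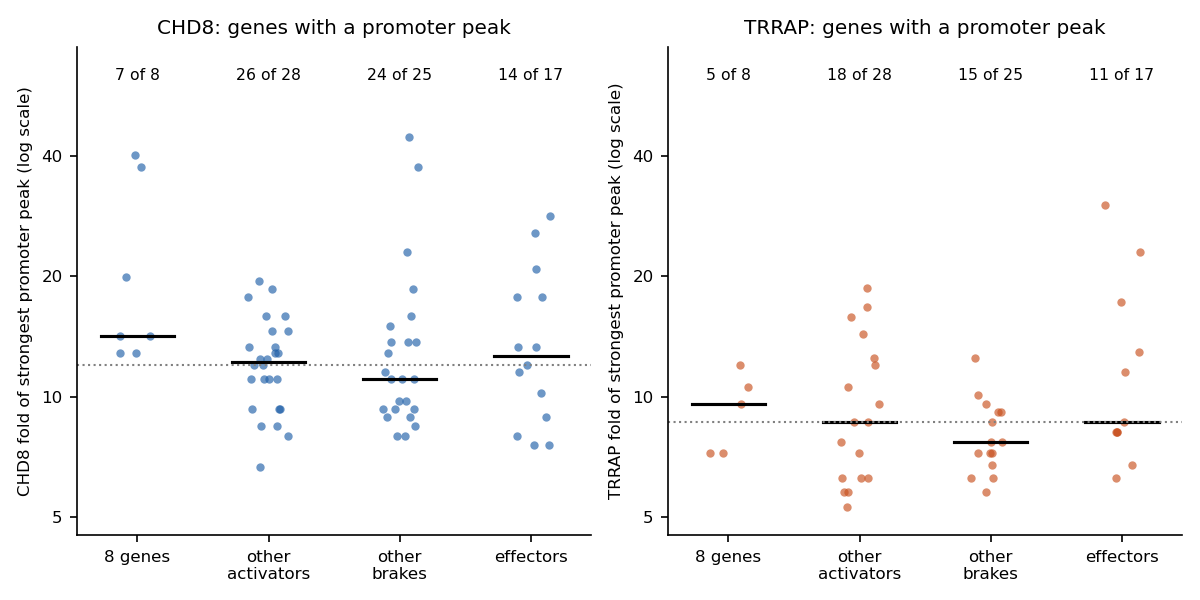
Deposited fold of the strongest promoter peak (y axis, log scale) for each gene with one, in the 8 genes and in the other activators, brakes and effectors; bars are medians, the dotted line is the median of all protein-coding genes, and the numbers count genes with a peak. CHD8 was at 26 of 28, 24 of 25 and 14 of 17 genes, TRRAP at 18, 15 and 11.

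By complex, a grouping made after the values were seen, the brakes TSC complex and GATOR1 carried both proteins throughout. All 3 genes of the TSC complex (TSC1, TSC2 and TBC1D7) and all 3 of GATOR1 (DEPDC5, NPRL2 and NPRL3) had promoter peaks in both lists. TBC1D7 had folds of 8.87 (CHD8) and 6.26 (TRRAP), NPRL2 11.1 and 10.1, and NPRL3 9.75 and 7.69. The TRRAP peak of TBC1D7 was weak, at rank 13649 of 14735 with a −log10 q of 5.33. A q-value of at most 1e-06 leaves it out, so the TSC complex then lacks TRRAP at TBC1D7. All 3 genes of GATOR1 keep both proteins at that q-value. The NPRL2 start is 87 bp from that of CYB561D2. Its peaks, like those at the promoter that TSC2 shares with NTHL1, cannot be assigned to 1 gene. KPTN, a subunit of KICSTOR, which holds GATOR1 at the lysosome, had a CHD8 fold of 23.0 without TRRAP. In the core of mTORC1, MTOR, the kinase itself, had CHD8 (fold 19.5) without TRRAP as RPTOR did, and MLST8 had both (12.8 and 9.60). In mTORC2, MAPKAP1 had CHD8 alone (11.1), beside RICTOR and MLST8 with both.

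At the PI3K and AKT level, 1 of 3 catalytic subunit genes had both proteins: PIK3CB did, PIK3CA had CHD8 alone and PIK3CD had neither at its promoter. All 3 regulatory subunit genes had both, among them PIK3R1 (folds 12.8 and 5.30) and PIK3R2 (9.31 and 5.78). AKT2 (15.9 and 5.78) carried both at its promoter, unlike AKT1. The strongest TRRAP promoter peaks of PIK3CB, PIK3R1, PIK3R2 and AKT2 were weak, at ranks 12872, 14555, 14105 and 13805 of 14735. Their −log10 q was 4.39 at PIK3R1 and 5.33 at the others. A q-value of at most 1e-06 leaves these peaks out, but not that of PIK3R3 (−log10 q 18.7). PDPK1, the kinase that phosphorylates AKT, had CHD8 alone (11.1). Among the highest CHD8 folds on the list were those of AKT1S1 (44.7), an inhibitor within mTORC1 whose start is 347 bp from that of TBC1D17, and GSK3B (28.3). AKT1S1 had no TRRAP promoter peak. The highest TRRAP folds were at the transcription factor gene FOXO3 (30.1, summit at −1329 bp), the kinase gene GSK3B (23.0, −1209 bp) and the folliculin partner gene FNIP2 (18.7, −239 bp). The 6 genes without a CHD8 promoter peak were the catalytic subunit gene PIK3CD, the mTORC2 subunit gene PRR5, the lipid phosphatase gene INPP4B, the transcription factor gene FOXO4, the adaptor gene GRB10 and the kinase gene SGK1, of which PRR5 had a TRRAP promoter peak (fold 6.26). FOXO4 had no peak of either list in its span, and the other 5 had 1 to 3 CHD8 peaks outside the window.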

How the data were processed

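Per the submitters' processing notes, HISAT2, MACS2 2.1.1.20160309 and the GRCh38 build were used; the notes give no role or order, and the control, filters and read totals are not given in the sources used here. The deposited lists give for each peak, as the authors' values, a fold (a linear ratio), a −log10 p and a −log10 q, a summit, and a score that is 10 times the −log10 q, rounded down. All sequence names were found in the GRCh38 reference, and 0 peaks ran past a sequence end. The lists carry false discovery rates of 0.0001 (CHD8) and 0.001 (TRRAP) in their names.

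Peaks were matched to GENCODE release 44 and overlapped if they shared at least 1 bp. The interval search was tested on simulated data. Where a promoter had several peaks, the one with the highest fold stood for it. Copies of 32-base words within 50 bp of a summit, or in a whole peak, were counted in the reference without alternate sequences. Sequences are reference sequence on the strand of the gene, without annotated UTR beyond sites of 30 bases. Tools were samtools 1.23.1 and, under Python 3.11.15, pandas 2.3.3 for tables, numpy 2.4.6 and scipy 1.17.1 for values, numba 0.67.0 for word counts, pysam 0.24.0 for sequence and matplotlib 3.10.9 for plots.

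The 8 genes, the pathway list and the words were chosen with earlier results of these data known, and the list was written from general knowledge. All 8 genes are named with every peak. From the list, the direct partners of the 8 genes, the 3 highest folds per antibody and the genes without a CHD8 promoter peak are named; PIK3CB is named beside them, chosen after its values were seen. Some genes that this rule covers are not reported here. With 1 library per antibody no test was made. Alternatives were other windows, start sites, spans, overlap rules and stricter peaks.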

Additional observations from a re-analysis of the deposited data

How the results depend on the processing

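No paired analysis was possible because each antibody had 1 library. The number of the 8 genes with a CHD8 promoter peak lay between 6 and 8 under the alternatives run: 6 was reached with single-copy summits only, and 8 with a window of 2500 bp and with all transcript starts, both through AKT1. All transcript starts also gave TRRAP, and both proteins, at 6 genes. Leaving out multi-copy summits was chosen after the data were seen.

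Restriction to peaks above the median rank changed most. It left TRRAP, and both proteins, at 3 of the 8 promoters, 7 TRRAP peaks in the spans, 3 CHD8 body peaks, and 5 TRRAP and 5 CHD8 peaks that overlapped the other list. For the pathway list it gave 70.0% (CHD8), 31.4% (TRRAP) and 28.6% (both), which follows from the smaller lists. A q-value of at most 1e-06 gave 48.6% for TRRAP and 48.6% for both. With all transcript starts, CHD8 was at 97.1% of the list. Spans from 1 kb upstream held 3 TRRAP body peaks.

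Activators minus brakes, the difference in median CHD8 fold was 2.87, and it was 0 with the 2500 bp window and 0 with all starts, where AKT1 enters. The difference in width was 210.0 bp under both, in place of 263.5 bp. For TRRAP, all starts gave 4.78 in place of 4.06 for fold and −78.0 bp in place of −136.5 bp for width. The other 76 recomputed values kept their size or stayed within 1.5 times or their binomial interval. Some of them could not change. Counts of all peaks in the spans do not depend on the promoter window or start sites, and CHD8 counts do not depend on the TRRAP q-value. A TRRAP q-value of at most 0.0001 also kept 14712 of 14735 peaks. The count of 76 is therefore no measure of stability. The unknown depth sets which weaker peaks were listed.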
